A study of Mus musculus with 2 samples.

Results

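The matrix metalloproteases (MMPs), the ADAM and ADAMTS proteases and the tissue inhibitors of metalloproteases (TIMPs) were examined in cultured mouse tumour pericytes with and without Cd248. The members were 35 genes of these families, chosen by name with earlier results of these data known. They were matched by gene ID among 52636 gene IDs in the deposited table. Pericytes are the mural cells that wrap small vessels, and Cd248 (endosialin) is a lectin-like membrane protein that pericytes and fibroblasts carry. RNA-seq was done on 1 library of Cd248 null cells and 1 library of Cd248 heterozygous cells, both primary cells from tumours of the C57BL/6 strain, sorted by flow cytometry and kept on gelatin for 10 to 12 passages. Neither library was wild type for Cd248. How many animals or cultures each library stood for, the tumour model and the age of the mice were not stated in the labels. With 1 library per genotype there was no test, and every difference describes these libraries.

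The values are FPKM as deposited by the authors, that is, fragments scaled to transcript length and to a library total. Low FPKM values lay at steps of whole reads, which gave normalizing totals of 19786440 reads (null) and 23983040 reads (heterozygote). An FPKM of 1 on 1 kb therefore stood for 19.8 and 24.0 reads. Cd248 itself had an FPKM of 0.0592 in the library read as null and 20.98 in the other, about 3 and 1311 reads. The data columns carry codes, and the last letter N was read as null, so each direction rests on that reading and on the level of Cd248. Expressed below means an FPKM of 1 or more in either library, and higher or lower means at least 2-fold on the scale of log2(FPKM + 1). Intervals after a value or a ratio are exact 95% counting intervals from the reads. They cover counting error only, not the spread between cultures.

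The 2 cultures differed in marker genes of other cell types. All 7 markers of mesothelium, the lining of body cavities, were lower in the null library, with a summed FPKM of 17.5 against 1179.6, and Lrrn4 was listed at 0 there. Of 7 epithelial markers 3 were expressed and all 3 were lower, with a summed FPKM of 14.5 against 414 that came almost wholly from Krt18 and Krt19, also on the mesothelial list, and with Epcam at 0 in both. Of 7 endothelial markers only Esam was expressed (0.201 and 64.0), and Emcn was at 0 in both. Of 8 myeloid markers 4 were expressed and 3 were higher in the null library, with a summed FPKM of 134 against 6.38, of which Cd53 held 124 in null cells, while Adgre1 and Itgam were at 0 in both. The 6 lymphocyte markers were all at 0. The pericyte list summed to 799.7 and 1396 with 1 of 7 expressed markers higher (Pdgfrb) and none lower, and the fibroblast list to 5829 and 3669.9 with 2 of 7 higher and 3 lower. The pericyte sum came mostly from Acta2, which held 726 of it in null cells and 1367 in heterozygous cells. Pdgfrb had 57.3 and 8.25. Rgs5 (0.377 and 0.0173) and Anpep (0.0942 and 0.596) stayed under an FPKM of 1. Of the pericyte markers, Abcc9 was at 0 in both and Kcnj8 in the null library. The part of these markers in the member values was not tested, and in bulk RNA fewer cells of a type and less RNA per cell cannot be told apart.

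MMPs are secreted or membrane-bound zinc proteases that are made as inactive precursors and cleave collagens, other matrix proteins and growth factor carriers. ADAMTS proteases are secreted and cut proteoglycans, procollagens and microfibril proteins, while ADAM proteases sit in the membrane and many of them shed the outer part of other membrane proteins. TIMPs bind the active site of these enzymes. In human cell culture of endothelial cells with pericytes, TIMPs are known to stabilise endothelial tubes. MMPs open the basement membrane when vessels sprout.

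Of the 35 members, 27 were expressed, and 10 of these were higher in the null library, none was lower and 17 lay within 2-fold. Over all 12773 genes compared, 6.84% were higher and 6.88% were lower. Since earlier results of these data were known when the members were chosen, their counts do not describe the whole families. Further ADAM and ADAMTS genes, given below, were less uniform. The median log2 ratio of FPKM + 1 was 0.65 for the expressed members and 0.03 for all genes, and 22 of the 27 members (81.5%) had a ratio above 0, against 51.9% of all genes. The 10 higher members were Mmp2, Mmp3, Mmp16, Mmp19, Mmp23, Timp3, Adamts4, Adamts9, Adamts15 and Adam12. Adamts5, at a log2 ratio of 0.99, and Mmp11, at 0.94, lay just inside the 2-fold mark. The lowest ratio, -0.53, was that of Mmp13. The counts by family were 5 of 10 expressed MMPs, 1 of 3 TIMPs, 3 of 8 ADAMTS genes and 1 of 6 ADAM genes.

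**Figure D1:**
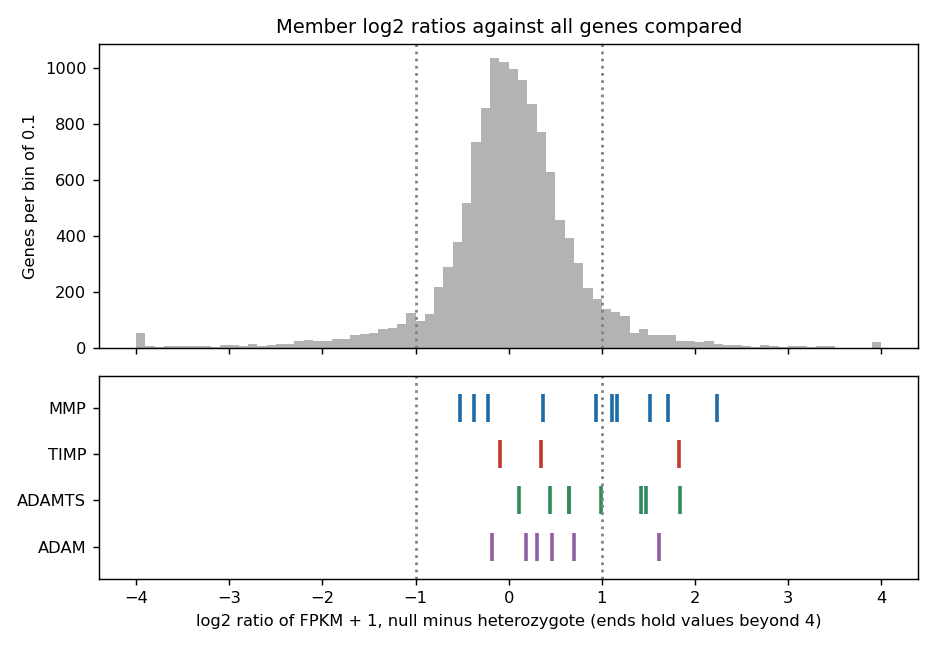
The upper panel is a histogram of the log2 ratio of FPKM + 1, null minus heterozygote, for the 12773 genes compared, and each tick in the lower panel is 1 of the 27 expressed members by family. Dotted lines mark 2-fold. The members spread from -0.53 to 2.24, with 10 right of the upper line and none left of the lower one.

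The membrane-anchored MMPs held the largest share of MMP transcript. Mmp14 encodes MT1-MMP, the main collagenase of the cell surface, which also activates pro-MMP2. Its FPKM was 574 in null cells and 443 in heterozygous cells, a ratio of 1.30 (1.27 to 1.33), and it lay at percentile 98.6 and 98.1 of the compared genes. It held 64.5% of the summed FPKM of the 15 MMP members in null cells and 79.6% in the heterozygote library. Mmp14 was thus high in both and within 2-fold.

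Mmp23, which encodes a membrane-tethered protease freed by cleavage within its own chain, had an FPKM of 46.7 in null cells (about 847 reads) and 15.7 in heterozygous cells (345 reads), 2.98-fold higher. Mmp16, which encodes MT3-MMP, had 6.82 (325 reads) and 2.61 (151 reads), 2.61-fold higher with an interval of 2.14 to 3.19. Both were higher in the null library. The other membrane-anchored members stayed under an FPKM of 1 in both libraries. Mmp15 stood at 0.400 and 0.810, Mmp17, which has a lipid anchor, at 0.486 and 0.956, and the brain-enriched Mmp24 at 0.0204 and 0.101. The ratio of reads per normalizing total, null over heterozygote, was 0.494 for Mmp15 and 0.509 for Mmp17. The counting intervals of these ratios ended at 0.825 and 0.768, so Mmp15 and Mmp17 had the lower value in the null library beyond counting error.

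The gelatinase Mmp2 digests denatured collagen and basement membrane collagen and is activated at the cell surface by MT1-MMP together with TIMP2. Its FPKM was 139.9 in null cells (3989 reads) and 42.0 in heterozygous cells (1452 reads), a 3.33-fold difference with an interval of 3.14 to 3.54. The other gelatinase, Mmp9, which is known mainly from leukocytes and epithelium, was close to absent at 0.156 and 0.0966, or 4 and 3 reads. Mmp2 was thus the gelatinase transcript of both cultures.

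Mmp19, a secreted MMP of basement membrane proteins that is found in vessel walls, had the highest log2 ratio of all members with the pseudocount of 1, 2.24. With a pseudocount of 0.1 it had 2.35, below the 4.74 of Adamts15. It stood at 44.0 in null cells (1739 reads) and 8.54 in heterozygous cells (409 reads), 5.15-fold higher with an interval of 4.62 to 5.75. Mmp11 (stromelysin 3), known from stroma next to carcinomas, had 67.4 and 34.6, a ratio of 1.95 (1.79 to 2.12). Mmp28 (epilysin) was lower in value in the null library, at 2.72 and 3.83, and within 2-fold. Of these other secreted MMPs only Mmp19 passed the 2-fold mark.

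The stromelysin and collagenase genes lie next to each other. On mouse chromosome 9, Mmp13, Mmp12, Mmp1b, Mmp3, Mmp10, Mmp8, Mmp27, Mmp20 and Mmp7 follow in this order with no other protein-coding gene between them. Among RefSeq promoters of the GRCm38.p6 build, 21 of the 35 members had an entry. In the 150 bases before the annotated start, searched on both strands, the letters of the AP-1 motif (TGANTCA) were found for Mmp3, Mmp10, Mmp12 and Mmp13 and for Adam19, in 5 of 25 member windows, and in 4.24% of all 32851 promoter windows of that length. The letters of a TATA box (TATAAA) were found for Mmp3, Mmp10, Mmp13 and Adamts1, and in 7.57% of all windows. The Mmp3, Mmp10 and Mmp13 windows are shown because these neighbours hold the same motif letters, with both motifs in capitals, not overlapping, and each sequence written 5′ to 3′ up to the base before the start.
Mmp3 (chr9:7445672-7445821, plus strand): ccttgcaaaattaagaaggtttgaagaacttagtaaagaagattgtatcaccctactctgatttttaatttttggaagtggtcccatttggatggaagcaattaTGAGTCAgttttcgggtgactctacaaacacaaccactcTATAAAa
Mmp10 (chr9:7502192-7502341, plus strand): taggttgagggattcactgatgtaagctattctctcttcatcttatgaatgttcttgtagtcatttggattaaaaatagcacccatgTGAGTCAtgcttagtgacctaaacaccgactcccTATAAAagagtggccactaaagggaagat
Mmp13 (chr9:7272364-7272513, plus strand): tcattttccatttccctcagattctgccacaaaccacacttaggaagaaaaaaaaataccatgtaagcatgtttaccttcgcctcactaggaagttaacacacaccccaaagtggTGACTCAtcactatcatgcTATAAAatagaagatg

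These neighbours did not have ratios in a common direction. Mmp3 (stromelysin 1), which cleaves proteoglycans and activates other MMPs, had an FPKM of 5.67 in null cells (202 reads) and 1.97 in heterozygous cells (85 reads), 2.88-fold higher with an interval of 2.23 to 3.76. Mmp13, the main interstitial collagenase of mice, had 0.548 in null cells (29 reads, 0.367 to 0.787) and 1.23 in heterozygous cells (79 reads, 0.976 to 1.54), so it was the higher value in the heterozygote and the counting intervals did not meet. It lay within 2-fold on the log2(FPKM + 1) scale. Mmp10 (stromelysin 2) stood at 0.851 (29 reads) and 1.16 (48 reads) with counting intervals that overlapped. Mmp12, the macrophage elastase, had 1 read in the null library and was listed at 0 in the heterozygote library.

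The other 8 MMP genes of the family were all below an FPKM of 1. Mmp27 had 17 reads in null cells and 2 in heterozygous cells (FPKM 0.492 and 0.0478), and the neutrophil collagenase Mmp8 had 8 and 1 (0.167 and 0.0172). Mmp1a, Mmp1b, Mmp7, Mmp20 and Mmp21 were listed at 0 in both. The expressed MMPs of these cultures were all among the members.

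**Figure D2:**
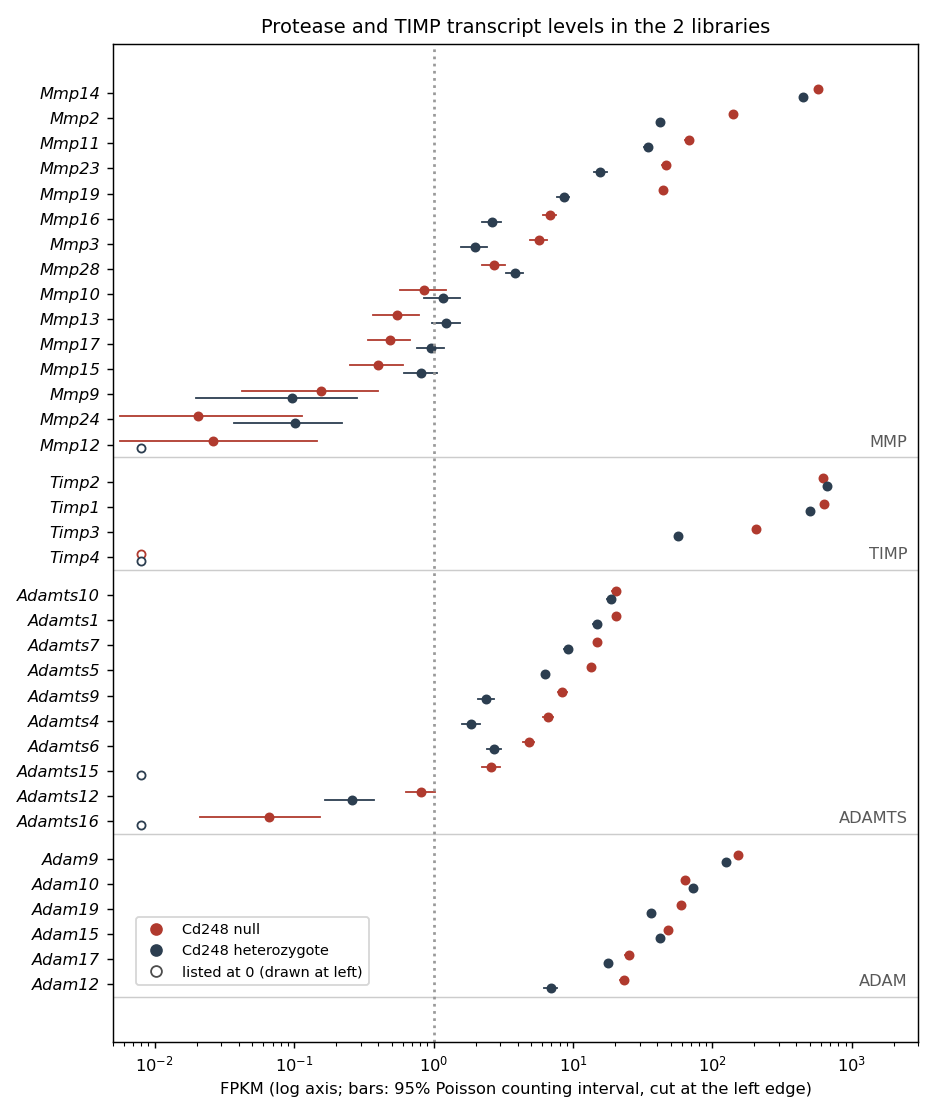
FPKM of the 35 members on a log axis, with the null library in red and the heterozygote library in dark blue, bars for the 95% Poisson counting interval and open circles for values listed at 0. The dotted line marks an FPKM of 1. Timp1, Timp2 and Mmp14 were highest in both libraries, and Adamts15 had a value of 2.57 in null cells and 0 in the other.

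TIMP transcripts outweighed those of the MMPs in both libraries. Timp1, a broad MMP inhibitor, had an FPKM of 634 in null cells and 497 in heterozygous cells, a ratio of 1.28 (1.24 to 1.31). Timp2, which inhibits MMPs and also takes part in activating pro-MMP2, had 623 and 662, a ratio of 0.94. These genes and Mmp14 were the 3 most abundant members in each library, also when levels were set per length of the longest transcript. Timp4 was listed at 0 in both.

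Timp3 was the TIMP past the 2-fold mark. It encodes the matrix-bound TIMP, which inhibits ADAM17 and the aggrecanases as well as MMPs. Its FPKM was 205 in null cells (9252 reads) and 57.0 in heterozygous cells (3118 reads), 3.60-fold higher with an interval of 3.45 to 3.75. It held 14.0% of the summed TIMP FPKM in null cells and 4.69% in the heterozygote library.

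The summed FPKM of the MMP members was 889.9 in null cells and 557 in heterozygous cells, 1.60-fold higher, and that of the TIMPs was 1462 and 1216, 1.20-fold higher. The MMP sum was 0.609 of the TIMP sum in null cells and 0.458 in heterozygous cells. Without Mmp14 the MMP sum was 316 and 114, 2.78-fold higher. The deposited FPKM divide by the mean length of all annotated transcripts of a gene, short ones included. Per length of the longest transcript, an option added after the data were seen, the MMP sum was 0.384 and 0.281 of the TIMP sum. The fraction was thus higher in the null library on both scales, but its size depended on the length.

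The ADAMTS genes past the 2-fold mark were 3 of those that cleave the large proteoglycans aggrecan and versican, namely Adamts4, Adamts9 and Adamts15. Adamts4 (aggrecanase 1) had an FPKM of 6.64 in null cells (549 reads) and 1.86 in heterozygous cells (186 reads), 3.58-fold higher with an interval of 3.02 to 4.25. Adamts9 had 8.38 (695 reads) and 2.38 (239 reads), 3.52-fold higher with an interval of 3.04 to 4.10. Adamts5 (aggrecanase 2) had 13.4 and 6.26, a ratio of 2.15 (2.02 to 2.29), although the pseudocount of 1 left it just under the 2-fold mark. Adamts1, the neighbour of Adamts5 on chromosome 16 with no protein-coding gene between them, had 20.5 and 14.8, a ratio of 1.38.

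Adamts15, a versican-cleaving protease, had reads in the null library only. It had 182 reads there, an FPKM of 2.57 (2.21 to 2.97), and was listed at 0 in the heterozygote library. Set against a floor of 3 reads, an FPKM of 0.0349 there, it was 73.5-fold higher. That value is not a lower limit, since the counting interval of the ratio to 0 reads began at 59.2. All 5 proteoglycan-cleaving members had a higher value in the null library, and 3 passed the 2-fold mark.

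None of the other ADAMTS members passed the mark. Adamts10, which works on fibrillin microfibrils, had an FPKM of 20.2 and 18.7, with a ratio interval of 0.997 to 1.17 that held 1. Its relative Adamts6 had 4.80 and 2.70, a ratio of 1.78. Adamts7, which cleaves cartilage oligomeric matrix protein, had 14.9 and 9.19, a ratio of 1.62. Its relative Adamts12 stayed under 1, at 0.811 (about 68 reads) and 0.261 (about 26 reads), with a ratio of reads per normalizing total of 3.17 (1.99 to 5.19), and Adamts16 had 5 reads in null cells and 0 in the other.

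The Timp3 and Adamts9 promoter windows are shown beside those of Mmp3, Mmp10 and Mmp13. The letters of a GC box (GGGCGG or its reverse complement CCGCCC, so that both strands are covered) are in capitals. Timp3 and Adamts9 were higher members, but so was Mmp3. A GC box was found in 13 of 25 member windows and in 28.6% of all windows, and neither sequence held the AP-1 or TATA letters. The other members with a GC box were Adam10, Adam15, Adam17, Adamts1, Mmp11, Mmp14, Mmp15, Mmp24, Mmp28, Timp1 and Timp2. None of these was called higher. Members without a promoter entry were not searched, so whether a GC box marks the higher members cannot be told from these windows. A match, or its lack, describes the letters of the window and not the binding of a factor.
Timp3 (chr10:86300262-86300411, plus strand): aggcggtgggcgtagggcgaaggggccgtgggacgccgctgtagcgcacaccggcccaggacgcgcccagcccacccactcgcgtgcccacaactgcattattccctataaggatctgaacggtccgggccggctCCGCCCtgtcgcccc
Adamts9 (chr6:92943535-92943684, minus strand): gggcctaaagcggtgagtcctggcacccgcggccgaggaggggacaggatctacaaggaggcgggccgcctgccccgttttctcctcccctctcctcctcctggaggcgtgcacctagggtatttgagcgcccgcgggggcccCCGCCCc

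Apart from Adam12, the ADAM members ranged from near even, for Adam10 and Adam15, to a higher value in the null library for Adam19. Adam9 had an FPKM of 153 in null cells and 124 in heterozygous cells, a ratio of 1.24. Adam10, the main sheddase of Notch receptors and cadherins, had 63.5 and 72.3, a ratio of 0.879 (0.837 to 0.924). Adam17, which releases tumour necrosis factor and ligands of the epidermal growth factor receptor, had 25.0 and 17.9, a ratio of 1.40. Adam15 had 47.9 and 41.9, and Adam19 had 59.9 and 36.5, a ratio of 1.64. All 5 lay within 2-fold.

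Adam12 was the exception. It encodes meltrin alpha, a protease of developing muscle and of activated stromal cells that cleaves binding proteins of insulin-like growth factors. Its FPKM was 23.1 in null cells (1022 reads) and 6.89 in heterozygous cells (369 reads), 3.36-fold higher with an interval of 2.98 to 3.79.

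**Figure D3:**
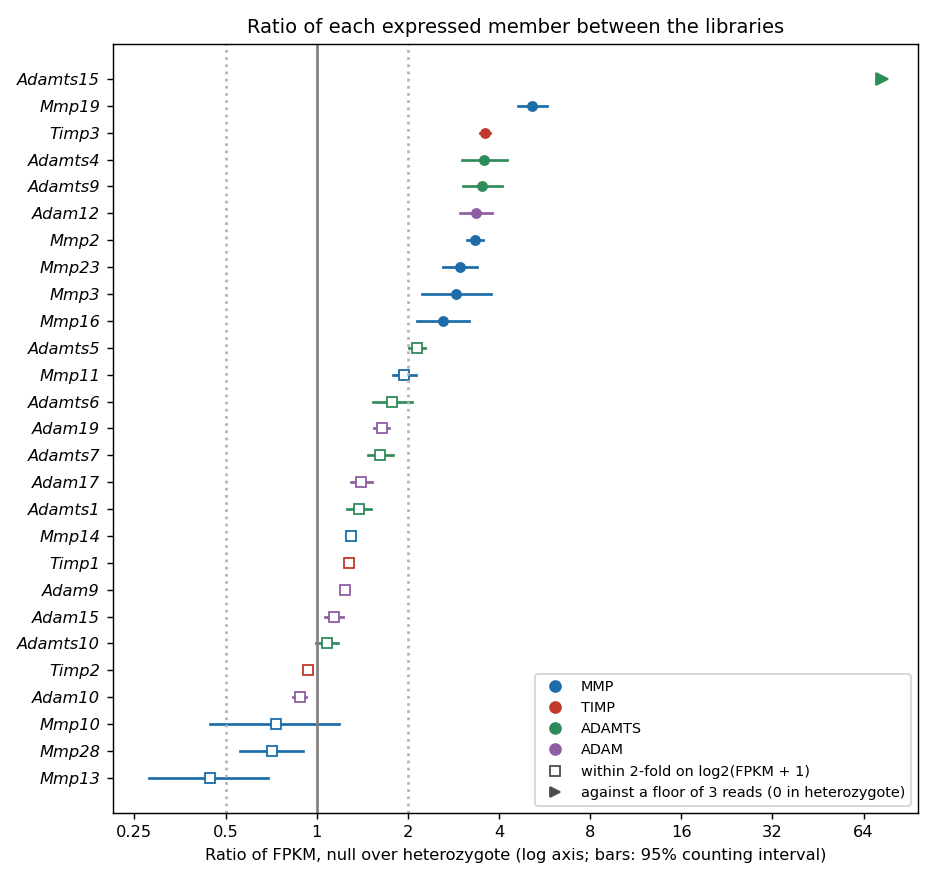
Ratio of FPKM, null over heterozygote, of the 27 expressed members on a log axis, with bars for the 95% counting interval. Filled circles passed the 2-fold mark on log2(FPKM + 1), open squares did not, the triangle is the value of 73.5 for Adamts15 against the floor of 3 reads, and Mmp10 and Mmp13 rest on an FPKM under 1 in the null library. Counting intervals lay above 1 for 21 members, below 1 for 4 and held 1 for 2.

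The members were compared with their chromosomal surroundings. Median log2 ratios of the chromosomes that hold expressed members ran from -0.27 on chromosome 11 to 0.41 on chromosome 1. The 10 higher members lay on 7 chromosomes, and after subtraction of the chromosome median all of them remained above 1, the lowest being Adamts4 at 1.01. Adamts4 is on chromosome 1, and its 20 nearest expressed genes had a median of 0.54 with none past the 2-fold mark. Among the neighbours of Mmp2, 5 of 20 were higher and 2 lower, among those of Timp3, 4 of 20 were higher and 1 lower, and of the other higher members none had more than 1 higher neighbour. For the 10 higher members such medians ran from -0.29 for Mmp19 to 0.54 for Adamts4.

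**Figure D4:**
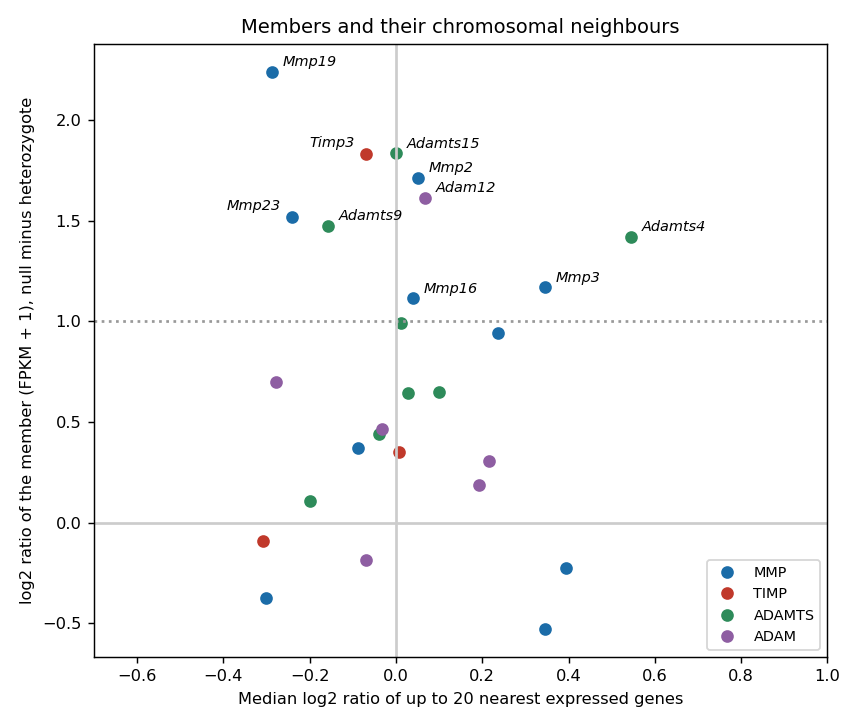
Each point is an expressed member, with the median log2 ratio of its nearest expressed genes (up to 20) on the horizontal axis and its own log2 ratio of FPKM + 1 on the vertical axis. The dotted line marks 2-fold, and the 10 named members lie above it. Adamts4 and Mmp3 had neighbour medians of 0.54 and 0.34, and those of the other 8 lay at 0.07 or below.

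Several members share exon bases with a gene on the opposite strand in the annotation, and whether the counting used strand is not stated in the labels. Without strand, the reads of such a pair cannot be told apart over the shared bases. Mmp19 shares 789 bases with Tmem198b (9.60 and 5.53). Timp3 shares 1733 bases with Syn3, which stood at 0.106 and 0.160. In all, 7 members overlap the exons of a gene that reached an FPKM of 1.

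Further ADAM and ADAMTS genes, with ADAMTS-like genes listed beside them, were less uniform than the members, and fewer of them were expressed. Of 16 further ADAMTS and ADAMTS-like genes 6 were expressed, 1 was higher and 1 lower, with a median log2 ratio of 0.48. The procollagen-processing Adamts2 had an FPKM of 73.0 and 48.8, Adamtsl5 had 68.2 and 43.0, and Adamtsl4, which binds fibrillin, had 17.0 and 22.8. Adamtsl3 was higher in the null library (27.0 and 9.76), and Thsd4, also called Adamtsl6, was lower (0.0324 and 4.21, or about 3 and 472 reads). Of 9 further ADAM genes 4 were expressed, none was higher, and Adam33 was lower (0.235 and 3.29). Adam23, an ADAM without protease activity, stood at 23.9 and 12.7, while Adam8 (1.51 and 2.32) and Adam11 (1.83 and 1.48) were low in both.

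Other inhibitors gave no common direction. Reck, a membrane-anchored MMP inhibitor, had an FPKM of 4.40 and 3.66. Cst3, which encodes the cysteine protease inhibitor cystatin C and was kept on the same list, had 499 and 627. Spock2 (testican 2), a proteoglycan that modulates MMPs, was lower in the null library at 0.175 against 4.61. The most abundant gene of that list, Pcolce, is not an inhibitor of these proteases but an enhancer of procollagen cleavage, and it had 1122 and 812. Tfpi2, an inhibitor of serine proteases also on that list, had 31 reads in the null library (FPKM 1.82) and was listed at 0 in the heterozygote library. Of the 9 genes listed, these included, 5 were expressed, 1 was higher and 1 lower, and the median log2 ratio was 0.21.

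Among 14 expressed genes that activate or escort the proteases, none was higher in the null library, 4 were lower, and the median log2 ratio was -0.21. Tspan15, a tetraspanin that escorts ADAM10, had an FPKM of 4.67 in null cells and 52.7 in heterozygous cells, 11.3-fold lower. Rhbdf2 (iRhom2), which escorts ADAM17, had 1.56 and 11.3, 7.25-fold lower. The proprotein convertases Pcsk6 (7.65 and 27.2) and Pcsk5 (0.0649 and 5.63) were also lower. Furin, the convertase that activates MT1-MMP, had 70.6 and 54.8, and the iRhom1 gene Rhbdf1 had 72.2 and 86.8, both within 2-fold. So were the most abundant genes listed, Lrp1, which encodes a receptor that takes up proteases bound to inhibitors (1041 and 716), and Bsg, which encodes basigin, an inducer of MMPs (645 and 1088). Pace4 on the list is an older name of Pcsk6.

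Substrates of the sheddases were mixed. Among 23 expressed genes, 3 were higher in the null library, 6 were lower, and the median was -0.38. Of the lower ones, 4 are ligands of epidermal growth factor receptors that ADAM17 or ADAM10 releases. They were Btc (0.464 in null cells and 8.56 in heterozygous cells), Tgfa (0.921 and 7.54), Ereg (3.51 and 11.3) and Hbegf (15.04 and 33.0). The other lower ones were Mertk (0.588 and 5.22) and Icam1 (2.45 and 7.69), and the higher ones were Vcam1 (127 and 46.9), Sdc1 (141 and 61.9) and Notch1 (4.06 and 1.40). The most abundant were the receptor tyrosine kinase gene Axl (649.7 and 558), the tumour necrosis factor receptor gene Tnfrsf1a (284 and 156) and App (158 and 212), all within 2-fold.

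Among 14 expressed matrix substrates, 5 passed the mark upward and 2 downward, and the median log2 ratio was 0.50. Fn1, which encodes fibronectin, had an FPKM of 1115 in null cells and 192 in heterozygous cells, 5.82-fold higher. Vcan, which encodes versican, the substrate of several ADAMTS members, had 103 and 22.7, 4.54-fold higher, while aggrecan (Acan) was listed at 0 in the null library and at 0.00838 in the other. The microfibril gene Fbn1 (42.5 and 13.1) and the fibrillar collagen genes Col3a1 (435 and 187) and Col1a2 (1832 and 853) were the other higher ones. Col1a1 (2779 and 2024) and Bgn, which encodes biglycan (2047 and 1412), were the most abundant and lay within 2-fold. Dcn (20.8 and 117) and Col4a1 (157 and 318), which encodes a basement membrane collagen, were lower.

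Of 17 transcription factors known to act on MMP genes, all were expressed, 1 was higher and 16 lay within 2-fold, and the median was 0.13. The higher one was Cebpb, at an FPKM of 144 and 42.6. The AP-1 genes Fosl2 (91.9 and 57.5), Fosl1 (65.7 and 70.4), Junb (258 and 222), Fos (28.5 and 16.8) and Jun (51.1 and 78.8) lay within 2-fold.

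**Figure D5:**
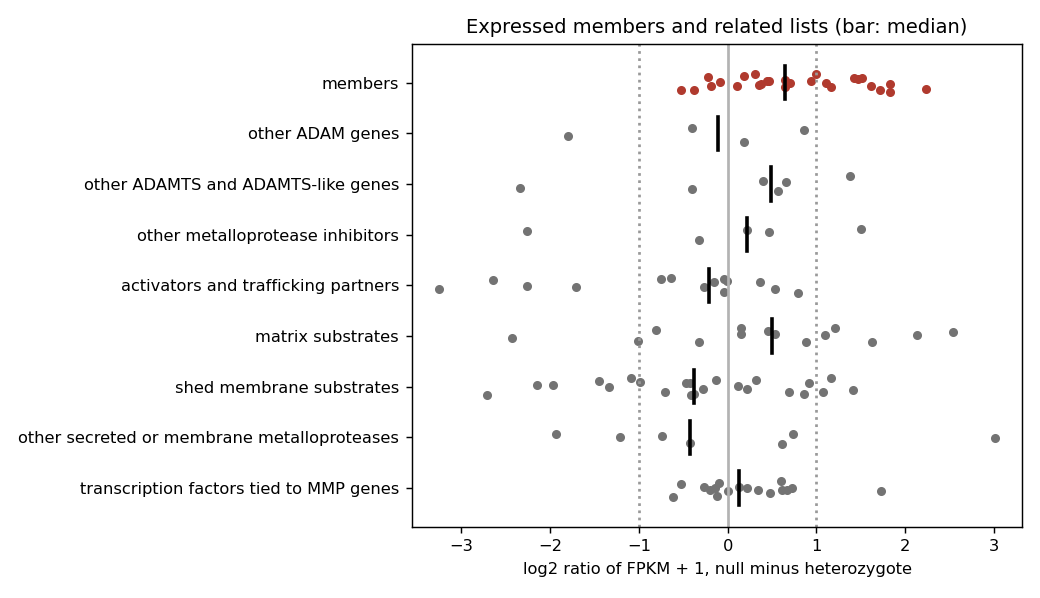
Each point is the log2 ratio of FPKM + 1, null minus heterozygote, of an expressed gene, with the members in red, the related lists in grey and a black bar at each median. Vertical jitter has no meaning. The member median was 0.65, and the list medians ran from -0.42 to 0.50.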

How the data were processed

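RNA-seq was measured in 2 libraries. The authors deposited FPKM for 52636 Ensembl gene IDs. Per the submitters' processing notes, Bowtie2 (2.2.3) and the build mm8 were used. The counting tool is not given in the sources used here. IDs were matched to GENCODE M21 symbols (52403 matched), and coordinates are given only for RefSeq promoters of GRCm38.p6. FPKM × the rounded mean length of a gene's annotated transcripts × the normalizing total came out whole, within 0.05 reads, for 95.5% and 95.4% of values up to 10 reads and for 82.2% and 81.8% of those from 100 to 1000. Of the 35 members, 22 were whole in both libraries, and the others were rounded. No count model was run, since there was 1 library per genotype. Ratios were log2(FPKM + 1), null minus heterozygote, which understates differences of low genes. Per gene, a ratio of FPKM without pseudocount is given where both libraries reach 1, with an exact Clopper-Pearson interval from the reads. For Mmp15, Mmp17 and Adamts12, under that level, a ratio of reads per normalizing total is given in its place. Scripts (Python 3.11.15, scipy 1.17.1) were tested on simulated data. All members are named, with values for each expressed one and for most others. Of each related list, up to 4 genes per direction past 2-fold and the 3 most abundant were named, and Furin, Acan, Hbegf, Icam1, Fosl1, Fos and Jun were added after their values were seen. Members and lists were chosen with earlier results of these data known. Pseudocount, scaling, filter and chromosome centring were varied.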

Additional observations from a re-analysis of the deposited data

How the results depend on the processing

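The median log2 ratio of the expressed members was above 0 under all 7 alternative settings. It was 0.49 with a pseudocount of 5, 0.44 with no filter on low values (35 genes) and 0.82 with a minimum FPKM of 5 (22 genes), and it was within 0.1 of the main value of 0.65 under the other 4. With a pseudocount of 5 the higher members were 5, since Mmp3, Mmp16, Adamts4, Adamts9 and Adamts15 came within 2-fold, and 3.13% of all genes were higher. With a pseudocount of 0.1 there were 11 higher, Adamts5 being added, and 1 lower, Mmp13, against 10.2% and 8.53% of all genes. Columns scaled to an equal sum gave 12 higher (Mmp11 and Adamts5 added), with 7.71% of all genes higher, 6.25% lower and a median of 0.11. No called member turned its direction. Of 135 log2 ratios of single members under another setting, 31 moved by more than 0.5 of the width of their counting interval. With the expressed member listed at 0 in the heterozygote library set at its ratio against the floor of 3 reads, the median was 0.65. Depth limits the members under an FPKM of 1, such as Mmp9 with 4 and 3 reads. No paired analysis was possible because each genotype had 1 library and no replicate number. No library could be left out for the same reason.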

Other observations

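Other secreted and membrane metalloproteases, which the report does not describe, were 14 genes, of which 7 were expressed, 1 was higher in the null library and 2 were lower. Cpxm1, which encodes a secreted carboxypeptidase-like protein, had an FPKM of 23.8 in null cells and 2.08 in heterozygous cells, 11.4-fold higher. Tll1, a tolloid-like procollagen C-proteinase, was 4.85-fold lower (2.71 and 13.2), and the membrane peptidase Mme (neprilysin) stood at 0.207 and 1.79. The related procollagen C-proteinase Bmp1 had 155 and 92.8, within 2-fold, as were the most abundant listed gene Cpe, a carboxypeptidase of secretory granules (706 and 944), and the endothelin-converting enzyme gene Ece1 (20.2 and 34.3). The median log2 ratio of the list was -0.42, and it differed in sign from the mean of 0.01.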
